A study of Homo sapiens with 13 samples.

Results

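The RNA polymerase II (Pol II) landscape of MDA-MB-231 cells was read from the list of Pol II peaks, that is, stretches of the genome where chromatin immunoprecipitation followed by sequencing (ChIP-seq) gave a signal above a fixed threshold. These cells are an established human line of triple-negative breast cancer origin. The labels name no treatment of the cultures, so the list describes 1 condition. All 26065 Pol II peaks were used, out of 233691 peaks in the 6 lists of the series, which also cover CTCF, p300/CBP, H3K4me1, H3K4me3 and H3K27ac. The authors merged 2 Pol II replicate libraries before they called peaks, and the list gives positions on hg19 with no height or score. Depth is therefore unknown from this list, replicates could not be compared, a wide peak cannot be read as more Pol II, and no test between samples was possible. Shares are given with 95% Wilson intervals, which cover counting error only, and genes are not replicates of the cells.

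Pol II is the enzyme that transcribes protein-coding genes, most long non-coding RNA (lncRNA) genes, most microRNA precursors and most spliceosomal small nuclear RNAs. It assembles with general factors at the transcription start site (TSS), often pauses a short way downstream, is released into elongation by the kinase P-TEFb, and keeps transcribing past the site where the transcript is cleaved and polyadenylated until it is taken off the template. Where Pol II lies along a gene, at its start, across its body or past its end, is thus the property that a peak list can show. Genes were taken from GENCODE release 44 on GRCh37, each with its Ensembl canonical transcript, whose first and last bases are called here the TSS and the 3′ end. A TSS or a 3′ end was called occupied when a peak shared at least 1 base with the 500 bp centred on it. A gene was called covered end to end when 1 single peak held every base between them.

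Core promoters are shown for 5 of the longest genes that were covered end to end and held the TATA box letters TATAAA. The letters were searched for from 40 to 21 bases before the TSS. They cover the 60 bases upstream of the TSS in GRCh37, 5′ to 3′ on the strand of the gene, with TATAAA in capitals.
RND3 (chr2:151344182-151344241, minus strand): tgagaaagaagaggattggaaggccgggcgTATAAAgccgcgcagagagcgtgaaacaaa
IGFBP4 (chr17:38599642-38599701, plus strand): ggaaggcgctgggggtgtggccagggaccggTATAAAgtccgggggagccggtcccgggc
INSIG1 (chr7:155089528-155089587, plus strand): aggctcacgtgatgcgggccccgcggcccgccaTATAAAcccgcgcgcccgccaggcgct
SRSF3 (chr6:36562079-36562138, plus strand): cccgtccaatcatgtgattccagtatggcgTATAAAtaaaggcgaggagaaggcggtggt
EEF2 (chr19:3985462-3985521, minus strand): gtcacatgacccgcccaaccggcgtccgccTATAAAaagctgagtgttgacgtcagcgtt
In these 5 promoters the first T of the box lay between 30 and 27 bases before the TSS, a position that the search largely limits. RND3, a small GTPase, was 19473 bp long under a peak of 22850 bp, and SRSF3, a splicing factor, was 11239 bp long under a peak of 24350 bp. IGFBP4, an insulin-like growth factor binding protein, spanned 14276 bp under a peak of 22150 bp. INSIG1, which restrains sterol synthesis, spanned 12358 bp under a peak of 18200 bp, and EEF2, a translation elongation factor, spanned 9408 bp under a peak of 10550 bp.

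Mature microRNAs are shown because several of the widest peaks outside protein-coding genes lay over their precursors. They were taken from the RefSeq table of GRCh38.p14, and capitals mark the seed, bases 2 to 8, which leads target recognition. The arm shown is the one usually described as the active strand.
hsa-let-7a-5p: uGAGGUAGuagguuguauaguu
hsa-let-7b-5p: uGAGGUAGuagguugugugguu
hsa-let-7i-5p: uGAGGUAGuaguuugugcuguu
hsa-miR-100-5p: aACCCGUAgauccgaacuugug
hsa-miR-125b-5p: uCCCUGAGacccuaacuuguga
hsa-miR-221-3p: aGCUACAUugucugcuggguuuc
hsa-miR-222-3p: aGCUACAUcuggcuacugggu
The let-7 members share the seed GAGGUAG, and miR-221 and miR-222 share GCUACAU. In GRCh37, MIRLET7A2 and MIR100 lay in 1 peak of 32550 bp on chromosome 11 (121990951 to 122023501), and MIR125B1 lay in the next wide peak, of 17650 bp (121970451 to 121988101). MIR221 and MIR222 lay in 1 peak of 32450 bp on chromosome X (45599051 to 45631501), and MIRLET7A3 and MIRLET7B in 1 of 32300 bp on chromosome 22 (46480401 to 46512701). MIRLET7I lay in a peak of 18700 bp on chromosome 12. In all, 17 of 1441 microRNA genes outside protein-coding genes lay in a peak of at least 10 kb, and these 17 shared 11 peaks, so they are not independent cases. RefSeq's table held 15 of the 17. These microRNAs were chosen after the peak widths had been seen.

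The peaks were mostly narrow. Their median width was 850 bp, with quartiles of 400 and 1650 bp, and the widest spanned 79350 bp. The list covered 42.9 Mb, or 1.5% of the determined bases of the nuclear chromosomes. Only 2.00% of peaks, 522 in number, were at least 10 kb wide, yet they held 19.9% of all covered bases.

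Starts of genes were the most frequent location. Of 26064 nuclear peaks, 11226 (43.1%, 42.5% to 43.7%) touched the TSS window of a gene of any biotype and 9552 (36.6%, 36.1% to 37.2%) that of a protein-coding gene. Another 1729 peaks (6.63%, 6.34% to 6.94%) touched a 3′ end and no TSS, 9395 (36.0%, 35.5% to 36.6%) lay inside genes away from both ends, and 4155 (15.9%, 15.5% to 16.4%) touched no annotated gene. The last group includes peaks in a TSS or 3′ end window just outside a gene, which are also counted above, and 3714 peaks touched neither a gene nor such a window. The locations differed in width. Peaks at a TSS had a median of 1050 bp, peaks at a 3′ end without a TSS 2450 bp, and peaks inside genes 600.0 bp. The 1041 peaks that joined a protein-coding TSS to a protein-coding 3′ end, of the same or of another gene, had a median of 5500 bp and held 18.2% of all covered bases. Gene spans of any biotype made up 62.1% of the determined genome and held 77.2% of the covered bases.

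The peaks at starts differed from the rest in the chromatin they overlapped. H3K4me3, a histone mark of promoters, overlapped 96.9% (96.5% to 97.2%) of the peaks at a protein-coding TSS, 29.4% (28.5% to 30.4%) of the peaks inside genes and 34.9% (33.4% to 36.4%) of the 3714 peaks that touched neither a gene nor a TSS or 3′ end window. H3K27ac, a mark of active promoters and enhancers, overlapped 96.2% (95.8% to 96.5%), 42.9% (41.9% to 43.9%) and 48.8% (47.2% to 50.5%) of them. H3K4me1, a mark of enhancers, showed less contrast, at 36.6%, 50.9% and 47.9%, respectively. The acetyltransferases p300/CBP ran the other way, at 1.5% (1.27% to 1.76%), 7.39% (6.88% to 7.93%) and 12.4% (11.3% to 13.5%). Of the 3714 peaks away from genes, 1864 (50.2%) lay within 10 kb downstream of a protein-coding 3′ end. The same share was not computed for intergenic sequence as a whole, so this value cannot be read as an excess. The libraries behind these lists were processed with other thresholds, so the shares cannot be ranked between marks.

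The cell type was checked against its markers. All 6 markers of triple-negative mesenchymal-like lines had Pol II at the TSS, against a background of 55.4% of all protein-coding genes. All 6 also had it at the 3′ end (background 18.9%), and 3 were covered end to end (3.30%). These 3 were FOSL1, an AP-1 subunit, VIM, the intermediate filament of mesenchymal cells, and AXL, a receptor tyrosine kinase. CD44 was covered over 17.5% of its 93232 bp by 15 peaks, and CAV1 over 65.2%. Of 6 luminal markers, only ERBB2 had Pol II at the TSS. ERBB2 was also occupied at the 3′ end, with 13.1% of its body covered. GATA3 held 1 peak inside the gene, and ESR1, PGR, FOXA1 and CDH1 had no covered base. None of 8 markers of other tissues had Pol II at the TSS, although PTPRC and GFAP each held 2 peaks inside the gene. The label of the cells was thus not contradicted by the list.

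Protein-coding genes were mostly occupied at the start and much less often at the end. Of 19881 protein-coding genes, 11017 (55.4%, 54.7% to 56.1%) had Pol II at the TSS, 3761 (18.9%, 18.4% to 19.5%) at the 3′ end, and 656 (3.30%, 3.06% to 3.56%) were covered end to end. The largest occupied class, 7812 genes, had Pol II at the start only. A further 2549 genes were occupied at both ends without being covered end to end, 556 at the 3′ end only, 969 at neither end but inside, and 7339 held no peak. Some of the genes without a canonical start had Pol II at another annotated start. This was the case for 177 of the 969 genes occupied inside only (18.3%, 16.0% to 20.8%), 80 of the 556 with the 3′ end only, and 154 of the 7339 with no peak at the canonical gene. A TSS of another gene lay within 2 kb of 31.0% of the occupied 3′ ends, against 15.4% of all 3′ ends, and Pol II there cannot be assigned to 1 of the genes.

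**Figure D1:**
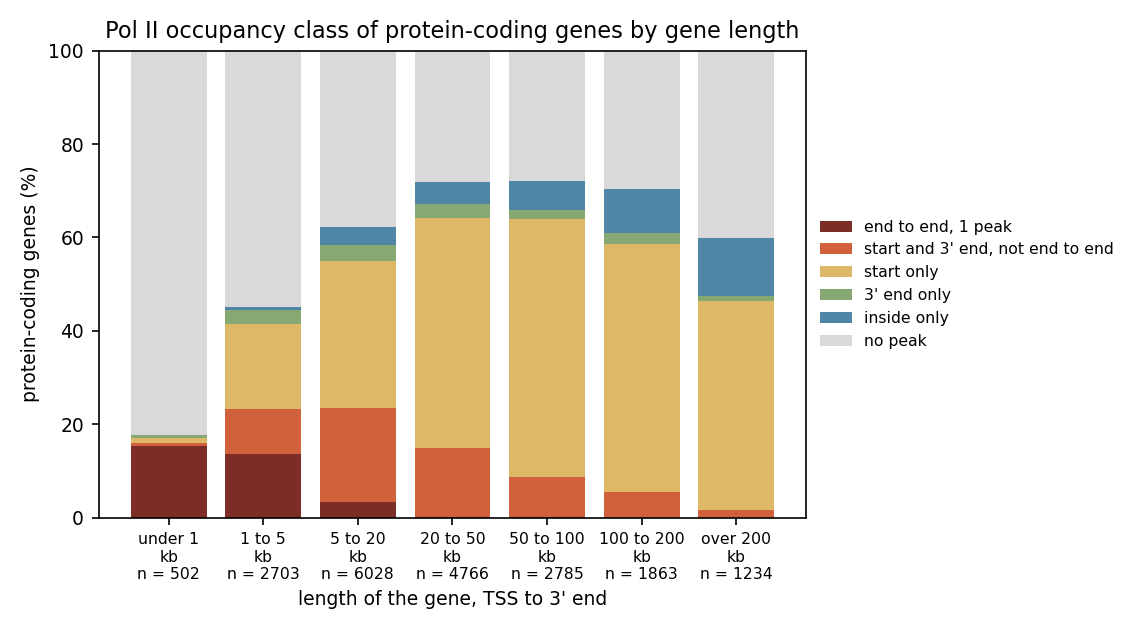
Share of protein-coding genes (y axis, %) in each Pol II occupancy class, in 7 classes of gene length (x axis, with the number of genes). Genes covered end to end make up 15.3% of genes under 1 kb and 3.35% of those of 5 to 20 kb, while genes occupied at the start only form the largest occupied class from 1 kb upwards.

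Gene length separated these classes. Genes of 20 to 50 kb and of 50 to 100 kb had Pol II at the TSS in 64.2% (62.8% to 65.5%) and 63.9% (62.1% to 65.6%) of cases, genes under 1 kb in 16.9% (13.9% to 20.5%) and genes over 200 kb in 46.4% (43.7% to 49.2%). The 3′ end followed another order. It was occupied in 26.2% of genes of 1 to 5 kb, 27.1% of genes of 5 to 20 kb and 2.76% (1.98% to 3.83%) of genes over 200 kb. Among the genes with Pol II at the TSS, the share that also had it at the 3′ end fell from 94.1% under 1 kb, where the windows nearly meet, to 56.0% at 1 to 5 kb, 42.9% at 5 to 20 kb, 23.3% at 20 to 50 kb, 13.6% at 50 to 100 kb, 9.44% at 100 to 200 kb and 3.66% (2.41% to 5.54%) over 200 kb. Coverage from end to end was found in 15.3% of genes under 1 kb, 13.5% of genes of 1 to 5 kb, 3.35% of genes of 5 to 20 kb and 0.210% (0.114% to 0.386%) of genes of 20 to 50 kb. A single gene of 50 to 100 kb and no gene above 100 kb was covered in this way.

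The share of the body under peaks fell with length, while the number of covered bases stayed within a narrow range. Among the 11017 genes with Pol II at the TSS the median share of the body inside peaks was 2.79%, with quartiles of 0.721% and 15.3%. The median was 45.7% at 1 to 5 kb, 10.2% at 5 to 20 kb, 1.99% at 20 to 50 kb, 0.822% at 50 to 100 kb, 0.417% at 100 to 200 kb and 0.153% over 200 kb. In bases, the median was 1333 bp at 1 to 5 kb, 1092 bp at 5 to 20 kb and 658.0 bp at 20 to 50 kb, and it reached 477.0 bp over 200 kb. Spearman's rho of gene length was -0.721 with the share and -0.168 with the covered bases, over 11017 genes of 1 list whose length enters the share itself. Few bodies were mostly covered. At least 50% of the body lay in peaks in 48.3% of the genes of 1 to 5 kb with Pol II at the TSS, in 18.4% at 5 to 20 kb, in 2.91% at 20 to 50 kb, in 10 genes of 50 to 100 kb, in 7 genes of 100 to 200 kb and in no gene over 200 kb, where the highest share was 12.9%.

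**Figure D2:**
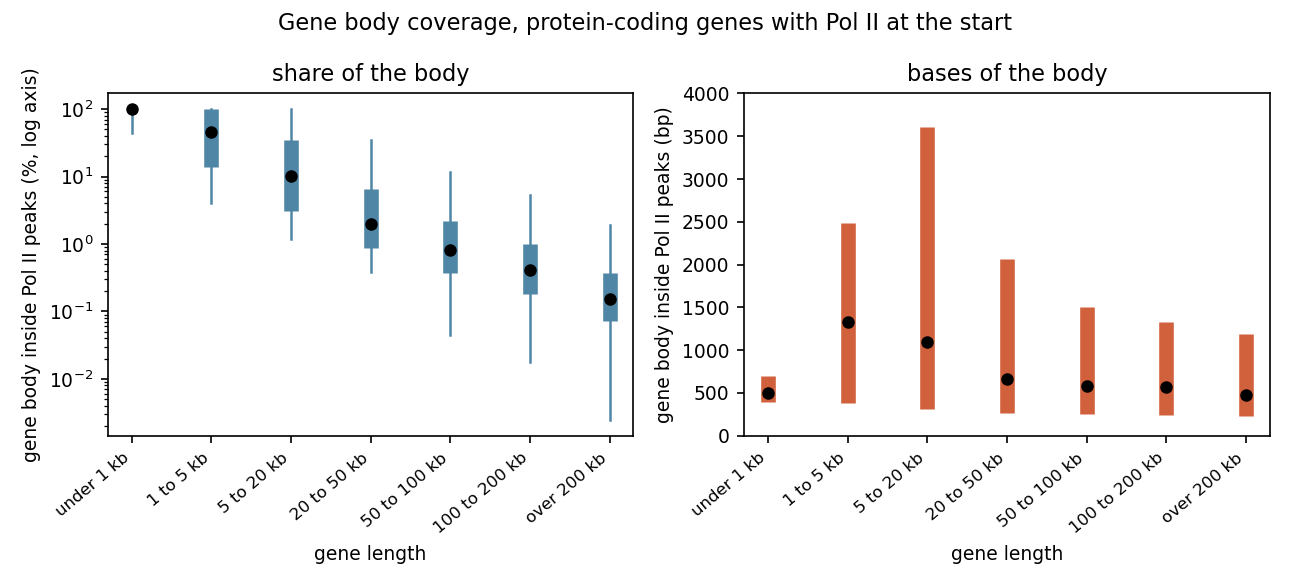
Gene body inside Pol II peaks by gene length, for protein-coding genes with Pol II at the TSS, as a share (left, %, log axis) and in bases (right, bp). Points are medians, thick bars the quartiles and thin lines on the left the 5th to 95th percentiles. The median share falls from 45.7% at 1 to 5 kb to 0.153% over 200 kb, whereas the median number of bases stays between 477.0 and 1333 bp.

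Occupied genes of medium length often had separate peaks at the start and the end. Of 2284 genes of at least 5 kb that were occupied at both ends without being covered end to end, 1832 had less than 50% of the body in peaks, the median share was 17.5%, and the median number of peaks was 2. In the class of 5 to 20 kb with Pol II at the TSS, 45.6% of genes held 2 or more peaks, against 34.0% over 200 kb.

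Around the TSS the peaks ran somewhat farther upstream than downstream. Among 9039 genes of at least 5 kb whose TSS base lay in a peak, the peak ran a median of 504.0 bp upstream (quartiles 336.0 and 950.0 bp) and 413.0 bp downstream (243.0 and 862.0 bp). The upstream run was the longer one in 5140 of these genes (56.9%, 55.8% to 57.9%). With no other gene in the 20 kb upstream it was the longer one in 749 of 1464 genes (51.2%, 48.6% to 53.7%). The profile was narrow in every length class. Of the 3059 genes of 20 to 50 kb chosen for Pol II in the TSS window, 93.3% had a peak at the TSS base, a value that the choice largely fixes, 20.8% at 1000 bp upstream and 16.6% at 1000 bp downstream. In the 573 genes over 200 kb chosen in the same way the shares at these positions were 88.8%, 15.9% and 12.2%.

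Past the 3′ end the peaks ran several times farther. The 3′ end base lay in a peak in 2427 genes of at least 5 kb, and the peak continued for a median of 2671 bp beyond it (quartiles 1272 and 4646 bp). In 545 of them (22.5%) it continued for more than 5 kb. For the 140 genes with no other gene in the 20 kb downstream, the median was 2236 bp (1102 and 3863 bp), so the run was not confined to genes with a close neighbour. Within the 1715 genes that had the TSS base and the 3′ end base in separate peaks, the run past the end was longer than the run upstream of the TSS in 1389 (81.0%, 79.1% to 82.8%), with medians of 2756 and 698.0 bp.

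The highest frequency of peaks lay beyond the 3′ end and not at it. For genes of 5 to 20 kb with Pol II at the TSS it was reached at 750 bp past the end, where 44.6% of genes had a peak, against 36.1% at the last base. For genes of 20 to 50 kb it was 28.7% at 1000 bp, against 19.4% at the last base, for genes of 50 to 100 kb 20.7% at 2000 bp against 9.89%, for genes of 100 to 200 kb 16.1% at 2250 bp against 7.79%, and for genes over 200 kb 7.85% at 1750 bp against 2.27%. The order held without neighbours. In 1327 genes of at least 20 kb with no gene in the 20 kb downstream, the frequency was 3.84% at 1000 bp before the end, 4.07% at the end, 9.80% at 1500 bp past it and 1.66% at 10000 bp past it.

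**Figure D3:**
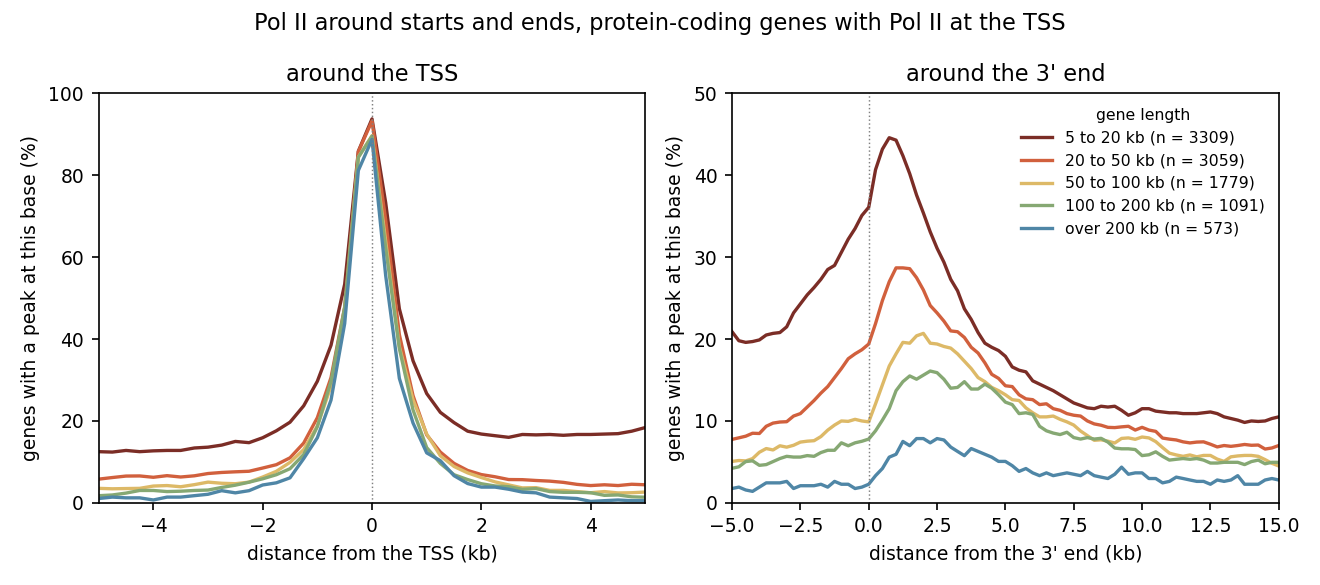
Share of protein-coding genes with Pol II at the TSS (y axis, %) that have a peak at each distance from the TSS (left, kb) and from the 3′ end (right, kb), by gene length. All lines peak at the TSS, by whose window the genes were chosen, between 88.8% and 93.8%, and again 750 to 2250 bp past the 3′ end, where the height falls from 44.6% for genes of 5 to 20 kb to 7.85% for genes over 200 kb.

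The 5 genes with the farthest run past the end, among those with no gene in the 20 kb downstream, were as follows. DUSP5, a nuclear phosphatase that acts on ERK, lies on chromosome 10 (112257665 to 112271291, plus strand) and was covered end to end by a peak that ran on for 20259 bp, more than its own 13627 bp. NABP1, a single-stranded DNA binding protein, had a peak that ran on for 16881 bp beyond a gene of 8808 bp. SPRY4, an inhibitor of receptor tyrosine kinase signalling, was covered end to end with 11494 bp beyond. SFPQ, a splicing factor and paraspeckle protein, had 10636 bp beyond the end, and RRM2, a subunit of ribonucleotide reductase, 10409 bp. In NABP1, SFPQ and RRM2 a gap split the body into 2 peaks, and 89.2%, 91.7% and 87.3% of it was covered.

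The longest genes covered from end to end are described next, 9 of them by name. BCL2L1, which encodes the anti-apoptotic protein BCL-XL, spans 58411 bp on chromosome 20 (30252261 to 30310671, minus strand) and lay in a peak of 67650 bp, which began 1629 bp upstream of the TSS and ended 7610 bp past the 3′ end. AXL spans 42544 bp on chromosome 19 (41725128 to 41767671, plus strand) under a peak of 49600 bp. LAMB3, a laminin chain of basement membranes, spans 37556 bp, and SNAPC1, a subunit of the complex that activates small nuclear RNA genes, 34009 bp. These were followed by PKM, the pyruvate kinase of glycolysis (32162 bp), AHNAK, a very large scaffold protein (30905 bp), CDC42EP3, an effector of CDC42 (29699 bp), TOP2A, a DNA topoisomerase of dividing cells (29372 bp), and PLEC, a linker of intermediate filaments (24445 bp). These 9 peaks all ran past the 3′ end, by 2969 bp at PKM to 11404 bp at SNAPC1. The peak over AXL also held the TSS of HNRNPUL1, so the part past the end of AXL cannot be assigned to AXL alone. Upstream of the TSS they ran from 752 bp at TOP2A to 6919 bp at PKM. H3K27ac covered 92.1% of BCL2L1 and 12.4% of TOP2A, so the extent of this mark varied widely within these 9 genes.

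Longer genes could be mostly covered by chains of peaks. CRIM1, a transmembrane regulator of growth factor signalling on chromosome 2 (36582921 to 36778278, plus strand), was the longest gene with at least 50% of the body covered, with 89.2% of its 195358 bp under 19 peaks. MYOF, a membrane repair protein, followed with 51.1% of 175906 bp under 34 peaks. COL13A1, a transmembrane collagen, had 95.8% of 157239 bp under 8 peaks, HMGA2, an architectural chromatin protein, 83.2% of 141809 bp under 20 peaks, and DNMBP, an activator of CDC42, 73.3% of 134371 bp under 24 peaks. All 5 had Pol II at the TSS. At the 3′ end window it was present in 4 of them and absent in MYOF.

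**Figure D4:**
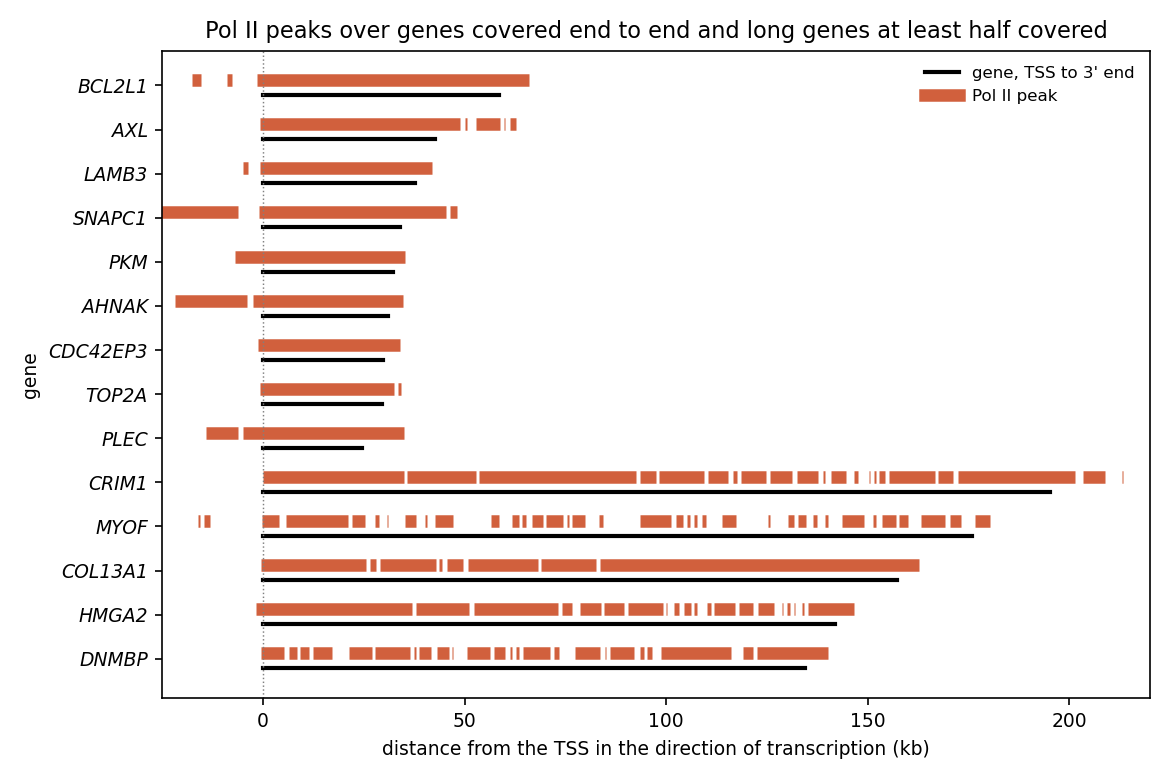
Pol II peaks (orange bars) over 9 of the 10 longest protein-coding genes covered end to end and the 5 longest with at least 50% of the body covered, by distance from the TSS in the direction of transcription (x axis, kb). Black lines mark the gene from TSS to 3′ end. In the first 9 genes 1 bar spans the whole line and overruns its right end, and in the last 5 the line is filled by 8 to 34 bars.

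The longest genes with Pol II at the TSS showed the opposite arrangement. DLG2, a synaptic scaffold protein, spans 2172173 bp, and 0.0133% of it was covered. The peak at its TSS was 1900 bp wide, of which 1812 bp lay upstream. MACROD2 (2057681 bp, 0.00919% covered), FHIT (1504124 bp, 0.138%) and CCSER1 (1477902 bp, 0.0207%) had TSS peaks of 600, 1650 and 550 bp. ENSG00000283563, a protein-coding entry without a symbol, had 5 peaks over 0.179% of 1418360 bp. FHIT is known for the common fragile site it spans.

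Most of the widest peaks lay on protein-coding genes, but several held no protein-coding TSS. Of the peaks named below, only the widest and the seventh held no TSS of any biotype. The widest, 79350 bp on chromosome 10 (71645151 to 71724501), lay in the downstream part of COL13A1 and held no TSS. The next, 74100 bp on chromosome 14, covered the downstream part of DYNC1H1, the heavy chain of cytoplasmic dynein, without its TSS. The fourth (63950 bp, chromosome 17) touched SMURF2, a ubiquitin ligase of TGF-beta signalling, and CEP95, and the fifth (61550 bp, chromosome 19) touched ACTN4, an actin crosslinker, and CAPN12, in both cases without a protein-coding TSS. HIF1A, the hypoxia-inducible factor, was touched by a peak of 48100 bp that held no protein-coding TSS, and SNAPC1 lay in the next wide peak along chromosome 14 (46350 bp). The seventh peak, 55250 bp on chromosome 7 (130549251 to 130604501), touched no protein-coding gene and touched the lncRNA genes LINC-PINT and LINC00513. BCL2L1 and AXL gave further wide peaks.

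The genes of the transcription machinery were nearly all occupied at the start, and few were covered from end to end. Their median length was 7842 bp for Pol II subunits and 31089 bp for pausing and elongation factors. It was 34790 bp for cleavage and termination factors and 37895 bp for general initiation factors. Of all protein-coding genes of 20 to 50 kb, 0.210% were covered end to end. Of 12 genes for Pol II subunits, 11 had Pol II at the TSS (background 55.4%), 6 at the 3′ end (18.9%) and 1 from end to end (3.30%). POLR2A, the largest subunit, was covered over 24.5% of 29812 bp by 6 peaks. POLR2L lay in a peak of 30550 bp that ran on for 20770 bp past its end, and POLR2J held no peak. Genes with close neighbours were not excluded from these lists, so a wide peak cannot be assigned to 1 gene alone. All 23 genes for pausing and elongation factors had Pol II at the TSS, 8 at the 3′ end, and 2 were covered end to end. These were HEXIM1, the inhibitor of P-TEFb, with a peak of 19550 bp over a gene of 3625 bp, and PAF1, a subunit of the PAF elongation complex. The median share of the body was 1.26% in this list. Of 17 genes for cleavage and termination factors, all had Pol II at the TSS, 7 at the 3′ end and none from end to end. PCF11, which links cleavage to termination, was covered over 45.8% of its body, and XRN2, the exonuclease that follows cleavage, over 0.788%. Of 18 genes for general initiation factors, 17 had Pol II at the TSS, 2 at the 3′ end and none from end to end, and GTF2H2, which has near-identical copies in the genome, held no peak.

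Lists of highly used genes held shorter genes and were covered much more often. The part of gene length in this contrast was not tested. Of 20 housekeeping genes, 18 were covered end to end, against 3.30% of all protein-coding genes and 13.5% of those of 1 to 5 kb, and the median length of the list was 4252 bp. GAPDH, a glycolytic enzyme, lay in a peak of 10150 bp and ACTB, cytoplasmic actin, in 1 of 8750 bp. The longest was PKM and the shortest TMSB10 (1016 bp). The exceptions were LDHA, with 91.3% of its body in 2 peaks, and B2M, with 29.2%. Of 81 genes for cytosolic ribosomal proteins, with a median length of 4522 bp, 78 had Pol II at the TSS (background 55.4%) and 69 at the 3′ end (18.9%). From end to end 58 were covered (3.30%, or 13.5% of all genes of 1 to 5 kb), from RPL41 (1335 bp) to RPS19 (12669 bp, under a peak of 15650 bp). Many of these genes have processed copies elsewhere, and only uniquely mapped reads were counted.

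Immediate early genes, which respond quickly to signals, varied from full coverage to none. Of 26 genes, with a median length of 4286 bp, 24 had Pol II at the TSS (background 55.4%), 17 at the 3′ end (18.9%) and 14 from end to end (3.30%, or 13.5% of all genes of 1 to 5 kb). JUN, JUNB, JUND and FOSL1, subunits of AP-1, were all covered end to end, under peaks of 7550, 9150, 5650 and 13300 bp. MYC was covered end to end under a peak of 9650 bp, and IER3, the shortest of the list, under a peak of 6050 bp. FOS had a peak of 350 bp at its TSS that left all but 6.46% of the gene uncovered, and FOSB was covered over 18.8%. EGR1 (2.17%), NR4A1 (2.17%) and ATF3 (1.23%) likewise had Pol II at the start only, and EGR2 and EGR3 had no peak. FOSL2 was covered over 95.3% of its 24460 bp, in 2 peaks.

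Nearly all histone genes were either fully covered or empty, as were most protein-coding genes under 1 kb. Of 63 replication-dependent histone genes, 35 were covered end to end, 27 held no peak and 1 had Pol II at the start only. Neighbouring genes could share a peak, as H1-4 and H2BC5 did, so these genes are not independent cases. Their median length was 487.0 bp. Of all 502 protein-coding genes under 1 kb, 77 (15.3%) were covered end to end and 413 held no peak. Nearly all of these histone genes are themselves part of that background. H1-4 (787 bp) lay under a peak of 3650 bp, while H4C14 and H4C15 held none. Near-identical copies are common in this family, which makes both states uncertain where reads could not be placed uniquely. None of 402 olfactory receptor genes, which are used in sensory neurons, had a covered base. Of 14 genes listed for their extreme length, 6 (42.9%) had Pol II at the TSS and none at the 3′ end, near the 46.4% and 2.76% of all genes over 200 kb, and 7 had no covered base, among them DMD and CNTNAP2.

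Long non-coding RNA genes were occupied less often, and their position made a large difference. Of 18702 lncRNA genes, 3735 (20%, 19.4% to 20.6%) had Pol II at the TSS, 1473 (7.88%) at the 3′ end and 706 (3.77%, 3.51% to 4.06%) from end to end. With a protein-coding TSS within 5 kb the share at the TSS was 55.6% (54.2% to 57.1%) of 4356 genes, and without one it was 9.14% (8.68% to 9.62%) of 14346 genes. Peaks near shared starts cannot be assigned to 1 of the genes. Unlike in protein-coding genes, the share at the TSS changed little with length above 1 kb, between 16.8% and 20%. It was 28.6% (27% to 30.4%) under 1 kb. Coverage from end to end fell from 15.5% under 1 kb to 4.25% at 1 to 5 kb and 0.704% at 5 to 20 kb, and 3 lncRNA genes of 20 to 50 kb and none above were covered.

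The 5 longest lncRNA genes covered end to end outside protein-coding genes were as follows. MIR222HG, the host of the miR-221 and miR-222 shown above, spans 25039 bp on chromosome X (45604639 to 45629677, minus strand). NEAT1, the scaffold of paraspeckles, spans 22743 bp on chromosome 11 (65190269 to 65213011, plus strand) under a peak of 29300 bp. SNHG17, a host of small nucleolar RNAs, spans 15740 bp, MALAT1, a nuclear speckle RNA, 10434 bp, and ENSG00000292285, which has no symbol, 8736 bp. The peak of MALAT1 ran 656 bp past its end and that of NEAT1 1689 bp. Of 9 nuclear lncRNA genes found under their listed names, 6 had Pol II at the TSS (20% of all lncRNA genes) and 3 were covered end to end (3.77%), namely NEAT1, MALAT1 and SNHG1. GAS5 had 96.5% of its body covered, PVT1 had 5.99% of 392561 bp under 13 peaks, and H19, HOTAIR and MEG3 had none.

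**Figure D5:**
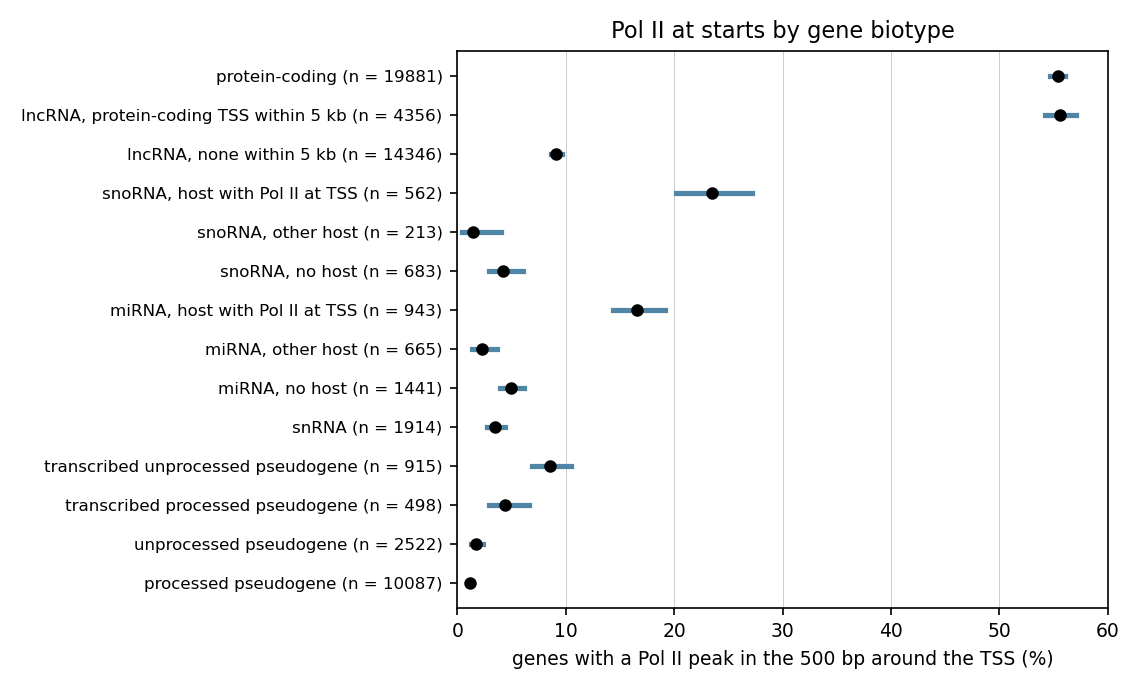
Share of genes with a Pol II peak in the 500 bp around the TSS (x axis, %), by biotype and, for lncRNA, snoRNA and miRNA genes, by position (y axis, with the number of genes). Points are shares and bars 95% Wilson intervals. LncRNA genes near a protein-coding TSS sit at 55.6%, beside protein-coding genes at 55.4%, while the others sit at 9.14%.

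The snoRNA and microRNA genes inside protein-coding genes differed with the state of the host. Of all 1458 small nucleolar RNA (snoRNA) genes, which guide chemical modification of ribosomal and small nuclear RNAs, 11.2% were occupied. The share was 23.5% (20.2% to 27.2%) of 562 inside a protein-coding gene with Pol II at its TSS, 1.41% (0.480% to 4.06%) of 213 inside another protein-coding gene, and 4.25% (2.97% to 6.03%) of 683 outside protein-coding genes. MicroRNA genes had the same order, with 16.6% (14.4% to 19.2%), 2.26% (1.37% to 3.69%) and 4.93% (3.92% to 6.17%), and 7.97% over all 3049. For snRNA genes the shares were 3.05% (1.96% to 4.72%), 1.29% (0.505% to 3.28%) and 4.48% (3.35% to 5.96%), and the intervals for both kinds of host overlap. Since a gene of this size cannot be told from the body of its host, these shares describe the position and not the small RNA itself. Processed pseudogenes, which are copies of spliced transcripts and mostly lack a promoter, had 1.22% (1.02% to 1.45%) of 10087 starts occupied. Transcribed unprocessed pseudogenes had 8.52% (6.88% to 10.5%) of 915.

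Small nuclear RNA (snRNA) genes were split between functional loci and the many copies. Of 1914 snRNA genes 67 (3.50%, 2.77% to 4.42%) were occupied. Of 14 genes listed for the spliceosomal and histone-processing snRNAs that Pol II makes, 12 were occupied, all of them from end to end. RNU7-1, which is needed for histone transcript processing, lay in a peak of 4150 bp, and RNU4ATAC of the minor spliceosome in a peak of 1450 bp. RNU1-3 and RNU1-4 held none, whereas the U1 genes RNU1-1 and RNU1-2 lay in peaks of 1650 and 1300 bp. Copies of U1 genes are near-identical, and the part of read placement in this was not tested. Genes made by RNA polymerase III were also often in reach of a peak. Of 18 found under their listed names, 13 had a Pol II peak in the TSS window and 6 were covered end to end, whereas 3.15% of all genes of the annotation's miscellaneous RNA class, which holds several of them, had a peak in the window. RMRP, the RNA of RNase MRP, lay under a peak of 8050 bp, and RNU6-9 and RNU6-2, U6 genes, under peaks of 3850 and 5650 bp. RN7SK, the RNA that binds HEXIM1 and P-TEFb, had a peak in its TSS window and no covered base. The annotation lists it under separate entries at nearly the same position, and it was counted once. Which polymerase the signal belongs to was not tested, since the windows also hold neighbouring genes.

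The classes of genes differed in features the rule did not use. In the 20 bases from 40 to 21 before the TSS, TATAAA on the gene's strand was found in 758 of 19881 promoters (3.81%, 3.56% to 4.09%). It was found in 69 of 656 genes covered end to end (10.5%, 8.40% to 13.1%), 36 of 2549 occupied at both ends (1.41%, 1.02% to 1.95%), 82 of 7812 occupied at the start only (1.05%, 0.847% to 1.30%) and 530 of 7339 without a peak (7.22%, 6.65% to 7.84%). Histone genes made up part of this, and without them the share in the first class was 7.41% (5.60% to 9.74%) of 621. Within the length class of 5 to 20 kb the shares were 8.42% (5.32% to 13.1%) end to end, 1.80% (1.29% to 2.5%) at the start only and 7.95% (6.90% to 9.13%) without a peak. Median lengths still differed there, at 7081 bp end to end, 11979 bp at the start only and 10304 bp without a peak. The length class of 1 to 5 kb holds 366 of the 656 genes covered end to end. The shares of TATAAA there were 7.65% (5.35% to 10.8%), 4.67% (3.13% to 6.90%) and 12.8% (11.2% to 14.6%) in the same order. Of all genes of this length 9.47% held TATAAA, so the excess over all genes was not seen there. A match is only a match of letters.

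Other sequence features varied in different ways between the classes. GGGCGG, the core of the GC box, was found on either strand of the 300 bp from 250 bases upstream to 50 downstream in 61.4% of all promoters. The shares were 71% (67.5% to 74.4%) in genes covered end to end, 79.4% (77.8% to 80.9%) with both ends, 75.3% (74.3% to 76.2%) with the start only, 59.9% (55.8% to 63.9%) with the 3′ end only, 56.1% (53.0% to 59.2%) inside only and 40.4% (39.3% to 41.5%) with no peak. The median number of CG dinucleotides in this window was 26, 29, 27, 16, 17 and 8 in the same order. The polyadenylation signal AATAAA lay in the last 40 bases of the transcript in 60.8%, 61.6%, 64.6%, 60.6%, 56.3% and 60.5% of genes, and in 62.1% of all. Genes covered end to end were short, with a median of 3415 bp and 4 exons, and 14.9% had a single exon, against 5.41% of all protein-coding genes. Genes occupied at the start only had a median of 36486 bp. Within 5 to 20 kb, the median GC content of the gene was 52.6% end to end, 52.9% with both ends, 45.8% with the start only and 47.8% without a peak. Base composition can move with the recovery of ChIP-seq reads, and its part in these differences was not tested.

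Chromatin marks at the TSS were shared by all classes with an occupied start. H3K4me3 lay at the TSS of 88.0% (85.2% to 90.2%) of genes covered end to end, 94.6% (93.6% to 95.4%) with both ends and 95.5% (95% to 95.9%) with the start only. The share was 25.6% (22.9% to 28.4%) where Pol II was inside only and 11.3% (10.6% to 12%) where no peak was found. Bodies differed more. At 5 to 20 kb, H3K27ac covered a median of 39.8% of the body in genes covered end to end (quartiles 23.7% and 61.6%), 15.6% with both ends (9.72% and 24.9%) and 9.91% with the start only (6.12% and 15.9%). Their median lengths within this range also differed, at 7081, 10900 and 11979 bp in the same order. The part of length in these shares was not tested. CTCF lay at the TSS of 15.5% (13.0% to 18.5%) of genes covered end to end and of 12.3% (11.6% to 13.0%) of those with the start only, with intervals that meet. Without histone genes the shares were 16.1% (13.4% to 19.2%) and 12.3% (11.6% to 13.1%), with intervals that do not meet. Within length classes the intervals overlapped, at 14.5% (11.2% to 18.5%) and 14.0% (11.2% to 17.3%) for 1 to 5 kb. For 5 to 20 kb they were 19.3% (14.5% to 25.3%) and 13.3% (11.8% to 14.9%).

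Close neighbours accompanied an occupied 3′ end, with or without full coverage. Another protein-coding gene lay within 5 kb of 84.6% of genes covered end to end. The share was 84.0% with both ends and 89.0% with the 3′ end only. It was 62.6% of those occupied at the start only, against 59.7% of all. Among the 8012 protein-coding genes with no such neighbour, the median share fell in the same order of length. The median share of the body with Pol II at the TSS was 20.4% at 1 to 5 kb, 5.03% at 5 to 20 kb, 1.47% at 20 to 50 kb, 0.675% at 50 to 100 kb, 0.361% at 100 to 200 kb and 0.128% over 200 kb. In this set 42.8% of genes had Pol II at the TSS, 7.13% at the 3′ end, and 101 genes were covered end to end. The density of genes thus moved with the coverage, and its part in it was not tested. Across autosomes, the share covered by peaks ran from 7.67% on chromosome 19, with 26.4 protein-coding genes per Mb, and 4.50% on chromosome 17, with 15.1, to 0.500% on chromosome 4, with 4.03. The order was not strict, and chromosome X had 0.384% covered with 5.57 protein-coding genes per Mb.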

How the data were processed

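MDA-MB-231 chromatin was immunoprecipitated with an antibody to Pol II in 2 replicates. According to the study's methods the authors aligned reads to hg19 with BWA-backtrack, whereas the submitters' processing notes name Bowtie2. PASHA then turned the reads that mapped to 1 place only into a signal over bins of 50 bp, the replicates were scaled and merged, and the authors kept bins above a threshold of 50, joined over gaps of up to 800 bp, in runs of at least 100 bp. No background subtraction is named for Pol II, unlike for the histone marks and p300/CBP. The deposited list holds peak positions in bp and no signal, so joined bins can bridge gaps in genes, and repeated genes receive few reads. Input libraries were not analysed here.

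Every position is 1 past a multiple of 50, and each end was taken to be the base just after its peak. Positions were compared with GENCODE release 44 on GRCh37 after chromosome lengths had been checked, using Python 3.11.15, NumPy 2.4.6, pandas 2.3.3, SciPy 1.17.1 and matplotlib 3.10.9. The gene model was the Ensembl canonical transcript, or the gene span for small RNAs without one, and other genes without one were not used. The 16 gene lists and the rules for named genes (the longest genes or widest peaks of each kind, and list members) were chosen with earlier results of these data known. Interval arithmetic was tested on simulated data. Since 1 merged list holds no replicates, no test was run and no sample could be left out. Some genes that met these rules are not reported here. No column of values was left unmapped, with 0 such columns.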

Additional observations from a re-analysis of the deposited data

How the results depend on the processing

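No paired analysis was possible because peak calling followed the merging of both replicates, and no replicate could be left out for the same reason. The 8 results were recomputed under the alternatives, which gave 36 values, of which 8 stayed within the 95% interval (or, for the count of genes, within 1.5 times) and 28 moved. Some of these alternatives were chosen after seeing the data, namely starts of any transcript, 3′ ends or lncRNA starts far from other starts, and genes with no gene downstream. Protein-coding TSSs with Pol II (55.4%) were 35.5% with wide peaks only (width at or above the median), 51.2% with the single TSS base, 58.4% with a 3 kb window, 51.4% with the outermost gene span, 42.8% with no neighbour within 5 kb and 57.5% with a TSS of any basic transcript. Occupied 3′ ends (18.9%) were 17.5% with wide peaks, 15.7% with the single base, 30.1% with 3 kb, 7.13% with no neighbour and 15.4% with no TSS of another gene within 2 kb. LncRNA TSSs (20%) were 14.3% with wide peaks, 17.6% with the single base, 24.4% with 3 kb and 9.14% with no protein-coding TSS within 5 kb. The median share of the body (2.79%) was 5.14% with wide peaks, 3.02% with the single base, 3.38% with the outermost span and 1.24% with no neighbour. The 656 genes covered end to end became 101 of 8012 genes with no neighbour and 1066 when peaks less than 2 kb apart were joined, so the rule for joining bins sets part of this count. Peaks at a TSS (43.1%) were 52.5% with wide peaks, 39.3% with the single base, 49.0% with 3 kb and 40% with the outermost span. Peaks outside genes (15.9%) were 11.6% with wide peaks and 24.2% when only protein-coding genes counted. The run past the 3′ end (2671 bp) was 2236 bp with no gene in the 20 kb downstream. The cause of the other shifts was not tested.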

Other observations

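The Pol II list held 1 peak on the mitochondrial chromosome, from 1 to 16701, which spans the whole of it and ends past its 16569 bp in GRCh37. Mitochondrial DNA is transcribed by another polymerase and is present in many copies per cell. The peak was left out of the shares above.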
